A study of Mus musculus with 4 samples.

Results

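Meningeal and perivascular fibroblasts were studied in the mouse brain at postnatal day 14, in single-nucleus RNA sequencing libraries of mice bred to lack Argonaute 2 in a class of excitatory neurons and of their controls. Nuclei were selected on the measured RNA of 11 genes and taken as fibroblasts when they held at least 1 unique molecular identifier (UMI, a tag for 1 captured RNA molecule) of at least 3 of the 11, which were Dcn, Col1a1, Col1a2, Slc6a13, Lum, Col3a1, Bnc2, Cped1, Ranbp3l, Slc6a20a and Adamts12. Nuclei had to hold at least 500 UMIs, with under 5% of them mitochondrial. The rule found 505 fibroblast nuclei among 16076 nuclei. All mice were C57BL/6 and carried Slc17a6-Cre, which switches on Cre recombinase in VGLUT2-positive excitatory neurons. The 2 cKO libraries came from Slc17a6-Cre, Ago2 flox/flox mice and the 2 WT libraries from Slc17a6-Cre, Ago2 wt/wt mice, all untreated. Fibroblasts are not the cells that this driver targets. The labels do not say whether each library is a separate animal, so that p-values measure the spread between these libraries, which may be technical.

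Brain fibroblasts form the dura, the arachnoid and the pia, and line the larger vessels that enter the brain. They secrete fibrillar and basement membrane collagens, laminins and proteoglycans. They also make retinoic acid, bone morphogenetic proteins (BMPs) and chemokines that act on nearby neurons and vessels, and those of the arachnoid carry many solute transporters. Mural cells (pericytes and smooth muscle) and endothelial cells share the vessel wall with them and served as neighbours for comparison.

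The fibroblast nuclei numbered 84 and 117 in the cKO libraries, against 122 and 182 in the WT libraries. They held 318536 and 489434 UMIs in the cKO libraries, against 612153 and 877794 in the WT libraries, so that WT values rest on more molecules. A fibroblast nucleus held a median of 3426 UMIs and 1875 genes, against 2667 UMIs and 1440 genes in the other nuclei. Libraries held 10845009 and 11439733 UMIs in all for cKO, against 13107920 and 29317266 for WT. The limit on mitochondrial UMIs removed 5.64% and 6.14% of the cKO barcodes, against 17.8% and 8.78% of the WT barcodes. Libraries shared 74 barcodes, of which 2 belonged to fibroblasts.

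The 11 genes that chose the nuclei are a description and carry no test. Cped1 was held by 86.5% of the fibroblast nuclei, Col1a2, a chain of type I collagen, by 65.1%, and Slc6a20a, a proline transporter, by 61.8%. Ranbp3l was held by 59.0% and Slc6a13, a transporter of GABA and taurine, by 54.5%. The proteoglycan genes Dcn and Lum were held by 37.8% and 9.31%. Among the other nuclei these shares lay between 0.206% for Lum and 3.15% for Bnc2 and for Ranbp3l. Microglia, which should lack these genes, gave 0.228% for Slc6a13, 0.683% for Dcn and 3.64% for Cped1 over 439 nuclei with a median of 1560 UMIs. Slc6a13 was the most restricted of the 11, with 92.8% of its UMIs inside the fibroblast nuclei. Cped1 and Slc6a20a were also held by 25.6% and 32.8% of the mural nuclei.

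A median fibroblast nucleus held 6 of the 11 genes, and 327 nuclei (64.8%) held at least 5. At the threshold, 114 nuclei held exactly 3 genes and 360 nuclei, which are not members, held exactly 2. Dcn was held by 10.5% of the nuclei with 3 genes and by 4.72% of those with 2, Slc6a13 by 18.4% and 3.33%, and Cped1 by 74.6% and 33.9%. Bnc2 and Ranbp3l differed less, at 42.1% and 33.1% for Bnc2 and at 24.6% and 24.4% for Ranbp3l. Adamts12 and Lum went the other way, at 23.7% and 30.0% for Adamts12 and at 0.877% and 1.39% for Lum.

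The label was checked by clustering the 505 nuclei without the 11 genes and looking for markers of other cell types. Presence of a marker in a cluster required a UMI in 10% or more of the nuclei and a level 2 or more times that of the remaining fibroblast nuclei. Of 10 groups, 5 held fewer than 3 markers of every other type. These unmixed groups contained 329 nuclei (65.2%). The other 5, with 176 nuclei, held 3 or more markers of another type beside the fibroblast genes and are called mixed groups. A group of 52 nuclei held all 6 of the pan-neuronal markers, 5 of 7 glutamatergic, 4 of 6 GABAergic and 4 of 7 oligodendrocyte precursor markers, with a median of 7430 UMIs. A group of 20 held 10 of 13 mural and 11 of 12 endothelial markers, and a group of 15 held 7 of 8 choroid plexus epithelium markers. The last 2 held 9 of 10 astrocyte markers (58 nuclei) and 4 of 7 cerebellar granule neuron markers (31 nuclei). Mixed groups held 57.9% of the nuclei with exactly 3 of the 11 genes, 35.9% of those with 4 and 29.6% of those with 5. The Scrublet caller marked 31 fibroblast nuclei (6.14%) as doublets, against 3.43% of the other nuclei. The shares were 23.1% in the neuronal group, 29.0% in the granule neuron group and 6.9% in the astrocyte group. No nucleus was marked in the group with mural and endothelial markers or in the group with choroid markers. In the group with mural and endothelial markers, a median nucleus held 3 of the 11 genes. Every nucleus there held Cped1, and 45% held Col1a2 and 45% Col3a1, while Dcn, Ranbp3l and Adamts12 were held by 5% each. Of the 505 nuclei, 47 also held at least 3 of the 10 mural genes used below, and 56 at least 3 of the 10 endothelial genes. Whether the nuclei of the mixed groups are doublets, fibroblast nuclei with free RNA or nuclei of another type that met the rule was not tested.

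**Figure D1:**
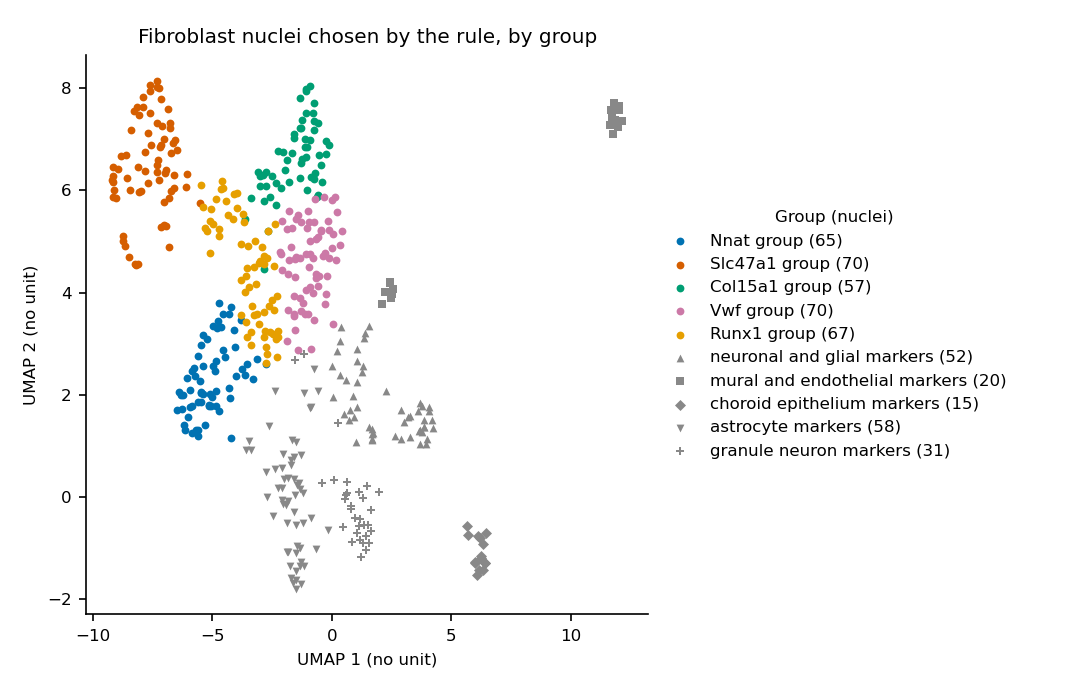
UMAP (an arrangement without units that places similar nuclei close together) of the 505 fibroblast nuclei, with the 5 unmixed groups in colour, named by their leading gene, and the 5 mixed groups as grey symbols, named by the markers they held. The unmixed groups adjoin each other at the upper left. The group with choroid epithelium markers and a clump of the group with mural and endothelial markers lie apart on the right. The remaining clump of the latter group, of WT nuclei only, lies near the group with neuronal and glial markers.

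The 5 unmixed groups differed in the layer genes that they held. Their leading genes are a description of the clustering and carry no test. The first group (65 nuclei) was led by Nnat, a small membrane protein, at 2486 CPM (the UMI count of a gene scaled to a common total) against 181 CPM in the other fibroblast nuclei. Every nucleus in it held Ptgds, the prostaglandin D synthase of the leptomeninges, at 7718 CPM. It held 3 of 8 arachnoid markers, Ptgds, Wnt6 and Aldh1a2, the retinoic acid synthesising enzyme, which was present in 63.1% of its nuclei. Slc13a3, a dicarboxylate transporter, was held by 63.1% as well.

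The second group (70 nuclei) was led by Slc47a1, an exporter of organic cations, at 1523 CPM against 14.5 CPM. It also held Adamtsl3 at 1862 CPM against 40.6 CPM, and Slc26a7, Rspo3 and Slc16a9. All of its nuclei held Bnc2, while 2.86% held Slc6a13 and 5.71% Slc6a20a, the lowest shares of these genes in any of the 10 groups. It held 4 of 8 arachnoid barrier markers, Cldn11, Cdh1, Dpp4 and Klf5, and 5 of 8 dural markers, Fxyd5, Smoc2, Foxp1, Mgp and Alpl. Since markers of both layers were present, it is called by its leading gene. Slc4a10, a bicarbonate transporter, stood at 4244 CPM, Slc38a2, an amino acid transporter, at 4155 CPM, and the transcription factor Foxp1 at 5320 CPM. The collagen gene Col25a1 stood at 2208 CPM and Fkbp5, a chaperone induced by glucocorticoids, at 1056 CPM.

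The third group (57 nuclei) was led by Col15a1, a collagen of vessel basement membranes, at 607 CPM against 14.4 CPM. It held 5 of 8 pial markers, S100a6, Lama1, Col18a1, Rdh10 and Cxcl12, and 3 of 8 perivascular markers, Col15a1, Vtn and Itih5. Lama1, a laminin chain of the pial basement membrane, stood at 1645 CPM, and Col4a6, a type IV collagen chain, at 1269 CPM. Col4a6 was held by 80.7% of its nuclei and by no nucleus of the Slc47a1 group.

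The fourth group (70 nuclei) was led by Vwf, best known from endothelium, although it was held by only 10.0% of its nuclei. Slc7a11, the cystine and glutamate exchanger, stood there at 4269 CPM and was held by 97.1%, and Bmp6 stood at 3858 CPM and was held by 95.7%. The fifth group (67 nuclei) was led by Runx1 at 153 CPM, held by 10.4%, and by Runx2 at 827 CPM, held by 22.4%. Neither the fourth nor the fifth group held 3 markers of a layer, so that no layer was assigned to them.

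**Figure D2:**
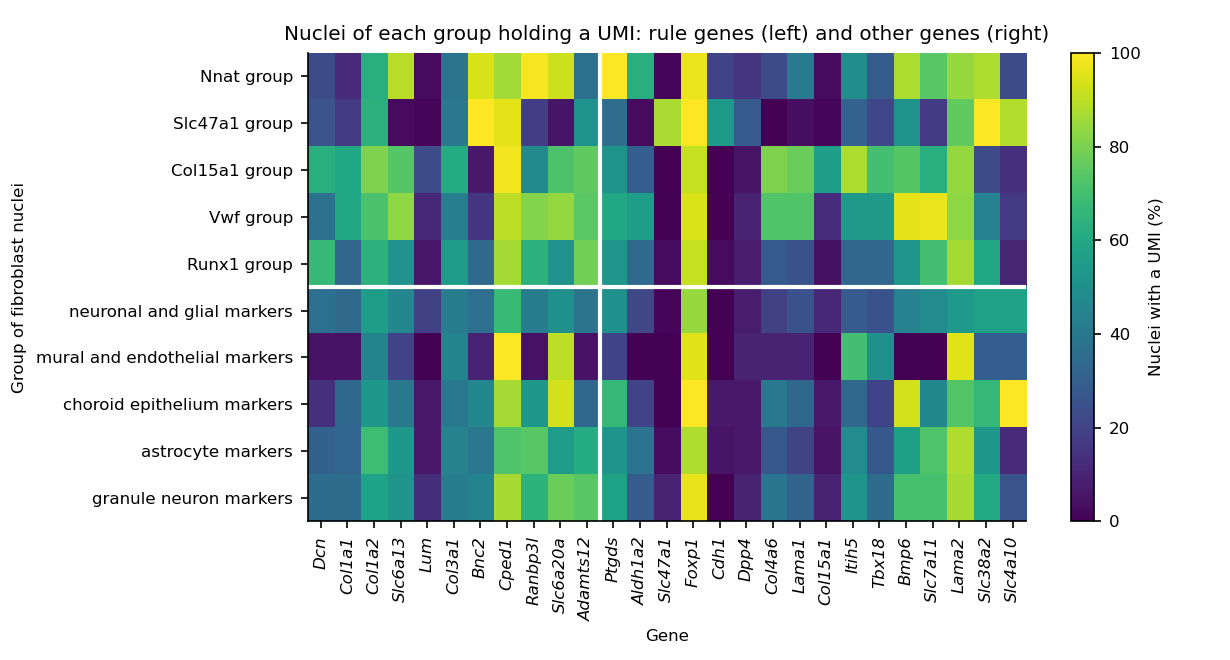
Percent of nuclei holding a UMI (colour, 0 to 100%) for the 11 genes of the rule and 16 other genes (columns, separated by a white line) in the 5 unmixed groups (upper rows) and 5 mixed groups (lower rows). Slc6a13 fills the Nnat, Col15a1 and Vwf groups but only 2.86% of the Slc47a1 group, and Slc47a1 itself fills only that group, at 87.1%.

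Fibroblasts were next set against mural nuclei. Fibroblast nuclei held more RNA of 8 of 11 other collagens, 11 of 22 transporters, 3 of 4 retinoid genes and 9 of 20 BMP and TGF-beta genes, and mural nuclei held more of the type IV collagen chains Col4a1 and Col4a2 and of the transcription factor Ebf1. Mural nuclei were non-members with at least 3 of 10 mural genes, 11 and 27 in the cKO libraries and 50 and 37 in the WT libraries. UMIs were summed per library and class, and tested with edgeR's quasi-likelihood test with the library as a block. Of 6198 genes tested, 419 (6.76%) were higher and 383 (6.18%) lower in fibroblasts at a Benjamini-Hochberg adjusted p under 0.05. DESeq2 called 534 genes, and edgeR called 1638 of 5311 in the unmixed groups, of which 764 were among the 802. The counts below leave out the genes that chose either class, and the median over the remaining 6180 genes was 0.02 on the log2 scale. Since both classes were chosen on measured genes, these counts describe how the classes differ. Of markers of other types, 3 of 6 pan-neuronal ones were lower and 5 of 6 choroid plexus epithelium ones higher in fibroblasts, and their part in the list counts was not tested. Trpm3, on the choroid list, was held by 83.6% or more of the fibroblast nuclei of every library.

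Collagens led the matrix genes. Of 11 other collagens tested, 8 were higher in fibroblasts and none lower, with a median log2 fold change of 2.22 over the 11. Col23a1 averaged 430.0 ± 108 CPM in fibroblasts and 71.5 ± 49.8 CPM in mural nuclei (SD, n = 4 libraries each), a log2 fold change of 2.81 (SE 0.32, edgeR adjusted p = 1.89e-07). Col13a1 had 200 UMIs in fibroblasts and none in mural nuclei, at least 13.6-fold higher against a floor of 3 UMIs over the mural class. Basement membrane genes divided, with 7 of 16 higher and 2 lower. Lama1 was higher by 3.87 and Col4a5 by 3.74, while Col4a1 and Col4a2, the most common chains of vessel basement membranes, were lower with log2 fold changes of -1.10 and -1.29. Col4a6 had 585 UMIs in fibroblasts and 1 in mural nuclei, a ratio of CPM of 119.0 (95% interval 21.3 to 4708.8, counting error only). Of 18 matrix glycoproteins, 7 were higher and Aspn was lower, and of 16 matrix enzymes 5 were higher.

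Transporters had 11 of 22 genes higher in fibroblasts, none lower and a median of 1.52. Slc7a11 averaged 1106 ± 220 CPM in fibroblasts and 77.1 ± 51.7 CPM in mural nuclei, higher in 4 of 4 libraries, with a log2 fold change of 4.02 (SE 0.33, edgeR adjusted p = 1.39e-09). Slc47a1 had 492 UMIs in fibroblasts and none in mural nuclei, at least 33.4-fold higher. Of 4 retinoid genes 3 were higher, among them Aldh1a1 by 2.02 and Aldh1a2, with no mural UMI, at least 26.9-fold higher. The BMP and TGF-beta list had 9 of 20 higher and none lower. Bmp6 averaged 1063 ± 126 CPM in fibroblasts and 58.5 ± 41.8 CPM in mural nuclei, a log2 fold change of 4.48 (SE 0.35, edgeR adjusted p = 6.13e-10).

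Among 17 transcription factors, 7 were higher and 1 lower. Foxp2 was higher by 2.91, Tbx18 by 1.73 and Foxp1 by 0.87. Ebf1 averaged 585 ± 81.4 CPM in fibroblasts and 1969 ± 638 CPM in mural nuclei, a log2 fold change of -1.68 (SE 0.26, edgeR adjusted p = 3.10e-05). Of 17 junction genes 6 were higher, among them Gja1 (connexin 43) by 1.79 and Cdh11 by 0.91, and 2 were lower, Cdh2 with -1.37 and Cdh10 with -0.93. Wnt genes were higher for 5 of 12 and lower for 1 (Dkk2), growth factors and receptors higher for 7 of 21 and lower for 1, and guidance cues higher for 6 of 23 and lower for 3. Slit2 was higher by 2.20. Of 10 glucocorticoid response genes 3 were higher (Fkbp5, Nr3c2 and Errfi1), and none of 11 genes of the miRNA pathway passed in either direction. Among the genes most strongly lower in fibroblasts were Itga4, an integrin chain, with -3.72, Slc38a11 with -3.44 and Cspg4, the NG2 proteoglycan of pericytes, with -3.25.

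Set against 378 endothelial nuclei (45 and 60 in the cKO libraries, 156 and 117 in the WT libraries), fibroblasts were higher for most collagens, matrix glycoproteins, transporters and transcription factors of the lists. Endothelial nuclei held at least 3 of 10 endothelial genes and were neither members nor mural nuclei. Of 9012 genes tested, 893 (9.91%) were higher and 1111 (12.3%) lower in fibroblasts by the same test (DESeq2 called 1290 in all), and the median over the 8991 genes that had chosen neither class was 0.02. Of 22 matrix glycoproteins 16 were higher and 2 lower, with a median of 2.40. Of 17 other collagens 12 were higher and none lower, and of 22 transcription factors 14 were higher and none lower. Transporters had 19 of 26 higher and 3 lower, namely the monocarboxylate transporter gene Slc16a1 and the efflux pump genes Abcb1a and Abcc4. Of markers of other types, the median log2 fold change was -1.22 for pan-neuronal, -1.01 for GABAergic and -0.92 for glutamatergic ones. It was 0.78 for astrocyte and 2.22 for mural markers, and the part of such RNA in the list counts was not tested.

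Lama2, a laminin chain of mesenchymal basement membranes, averaged 902 ± 121 CPM in fibroblasts and 63.2 ± 25.2 CPM in endothelial nuclei (SD, n = 4 libraries each), a log2 fold change of 3.69 (SE 0.26, edgeR adjusted p = 6.60e-07). Vtn was higher by 3.79 and Itih5 by 3.46. All 7 perivascular layer markers that were tested were higher in fibroblasts, as were 5 of 6 arachnoid, 4 of 5 pial, 4 of 4 arachnoid barrier and 3 of 6 dural markers. Bmp5 had 354 UMIs in fibroblasts and none in endothelial nuclei, at least 81.5-fold higher, and the forkhead factor gene Foxd1 had 308 and none, at least 70.9-fold higher. Tbx15 had 602 UMIs in fibroblasts and 3 in endothelial nuclei, a ratio of CPM of 138.7 (interval 47.2 to 674.3). Tbx18 was higher by 5.68, Slc13a3 by 5.14 and Slc7a11 by 4.96.

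Other lists were less one-sided. Guidance cues had 6 of 25 higher and 7 lower, and junction genes 7 of 18 higher and 4 lower. Wnt genes were higher for 9 of 13, while Lef1, a nuclear effector of the pathway, was lower at -1.58. Of 26 growth factors and receptors 12 were higher, among them Ptn by 2.52, and 4 were lower, among them Igf1r with -1.25. BMP and TGF-beta genes were higher for 10 of 23 and lower for 3, retinoid genes higher for 5 of 8 and glucocorticoid response genes higher for 7 of 13. In the miRNA pathway 1 of 14 was higher, Tnrc6a, a GW182 partner of the Argonaute proteins, by 0.52 (SE 0.17, edgeR adjusted p = 0.0443). The genes most strongly lower in fibroblasts included Egfl7, an endothelial secreted factor, with -3.42, and Slc7a5, a large neutral amino acid transporter of the blood-brain barrier, with -3.35.

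**Figure D3:**
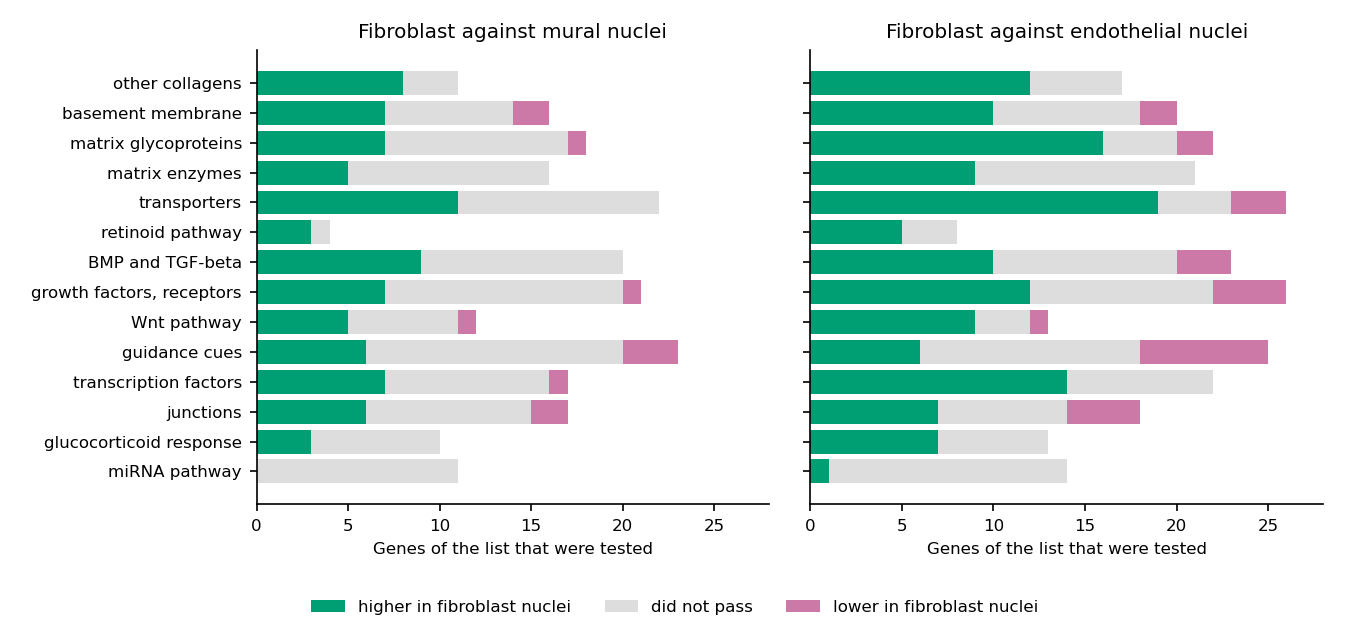
Number of tested genes of each list (bars) that were higher in fibroblast nuclei (green), did not pass the test (grey) or were lower in fibroblast nuclei (pink), against mural nuclei (left) and endothelial nuclei (right). No gene of the lists of other collagens, matrix enzymes and retinoid genes was lower in fibroblasts in either comparison, and transporters had 11 of 22 and 19 of 26 genes higher.

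Genotypes were then compared. The share of nuclei that were fibroblasts was 2.53% and 3.59% in the cKO libraries, against 3.65% and 2.96% in the WT libraries. The exact 95% binomial intervals, which cover counting error only, were 2.03 to 3.13% and 2.98 to 4.29% for cKO, against 3.04 to 4.34% and 2.55 to 3.41% for WT. The genotypes overlap, and the means of 3.06 ± 0.746% in cKO and 3.30 ± 0.490% in WT (SD, n = 2 each) differed by -0.24 percentage points (exact two-sided permutation test, p = 0.667, where 2 against 2 libraries cannot go below 0.333). Without nuclei that held markers of other types the shares were 1.54% and 1.96% in cKO, against 0.987% and 1.15% in WT, without overlap, with means of 1.75 ± 0.3004% in cKO and 1.07 ± 0.117% in WT and a difference of 0.68 points (exact two-sided permutation test, p = 0.333, the smallest this design allows). The sign of the difference thus depended on the definition of the members. The setting without markers of other types kept 51 of 84 and 64 of 117 fibroblast nuclei in cKO, against 33 of 122 and 71 of 182 in WT. It counts single UMIs, so it can depend on depth and free RNA. Fibroblast nuclei held medians of 2952.5 and 3408 UMIs in cKO, against 3775 and 3422.5 in WT. The part of depth and free RNA in this share was not tested.

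Ago2 in fibroblasts had 47.1 and 102 CPM in cKO against 73.5 and 106 CPM in WT, a log2 fold change of -0.24 (SE 0.33, edgeR adjusted p = 0.862), and the groups overlap. The labels do not say which part of the gene is deleted, and 3′ tags outside it would not see the deletion. Slc17a6, the driver gene, had 1 and 0 UMIs in cKO fibroblasts, against 16 and 15 in WT fibroblasts, of which 9 and 7 lay in the mixed group with neuronal and glial markers. The filter on low counts removed it from the main test, and with no filter its log2 fold change was -3.91 (edgeR adjusted p = 0.00488). It met the filter without marked doublets and did not pass there (edgeR adjusted p = 0.103). It also met the filter when cKO replicate 1, cKO replicate 2 or WT replicate 2 was left out, and did not pass in any of these fits.

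Over all 505 nuclei, cKO fibroblasts held more RNA of Fkbp5, Ptgds, Col25a1 and Bmp5 and less of Sgcz, Lingo2 and Meg3 than WT fibroblasts. With edgeR's quasi-likelihood test on the 4 library sums, 118 of 8399 genes (1.40%) passed an adjusted p under 0.05, of which 25 (0.298%) rose and 93 (1.11%) fell in cKO. DESeq2 called 41. Leaving out a library moved the count to 253 without cKO replicate 1, 212 without cKO replicate 2, 239 without WT replicate 1 and 97 without WT replicate 2. In the 5 unmixed groups alone, edgeR called 0 of 5403 genes (0%), with 337 at an unadjusted p under 0.05. This second fit was chosen after the data were seen and holds fewer nuclei and genes. Of the 25 genes that rose, 21 were tested there and 20 kept their sign, with a median log2 fold change of 0.92 against 1.36 over all nuclei. Of the 93 that fell, 72 were tested there and 55 kept their sign, with a median of -0.34 against -1.30. Since nuclei are summed, a change in which fibroblasts were captured and a change within them cannot be told apart in these sums. The mixed group with neuronal and glial markers gave 8 and 5 nuclei to the cKO sums, against 16 and 23 to the WT sums, the Nnat group 21 and 12, against 9 and 23, and the Slc47a1 group 10 and 26, against 16 and 18. The Vwf group gave 11 and 7, against 24 and 28, or 13.1% and 5.98% of the cKO nuclei against 19.7% and 15.4% of the WT nuclei. The Runx1 group gave 11 and 19, against 14 and 23, or 13.1% and 16.2% against 11.5% and 12.6%. Neither share overlapped between genotypes. The same held for the mixed group with neuronal and glial markers (9.52% and 4.27% against 13.1% and 12.6%). It also held for the mixed group with mural and endothelial markers (0% and 3.42% against 5.74% and 4.95%), while the other groups overlapped. No group share was tested, and 2 against 2 libraries cannot go below p = 0.333 in an exact two-sided permutation test. Calls were also fewer when at least 4 (1 gene) or at least 5 (5 genes) of the 11 genes were required. The same held when 3 of 8 of them (5 genes) were required. None of Fkbp5, Ptgds, Col25a1, Col8a1, Bmp5, Adamtsl3, Lifr and Apod passed under these 3 settings. Sgcz passed under all 3 (edgeR adjusted p = 0.0355, 0.0446 and 0.0378). The choroid plexus markers Ttr and Htr2c, and Rbm47, passed with at least 5 genes and with 3 of 8 genes.

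Summed levels of some lists of other cell types separated the genotypes, while those of others overlapped. None of these sums was tested. A separation of 2 from 2 libraries gives no p below 0.333 in an exact two-sided permutation test. The summed level of the 6 pan-neuronal markers was 4599 and 3637 CPM in cKO fibroblasts, against 6368 and 7980 CPM in WT fibroblasts, and none of the 6 was at 0. Restricted to the unmixed groups it was 3794 and 2409 CPM in cKO, against 2747 and 3772 CPM in WT, and the genotypes overlap. The 13 mural markers summed to 493 and 535 CPM in cKO, against 908 and 843 CPM in WT, and in the unmixed groups to 504 and 389 CPM, against 449 and 530 CPM. The 8 choroid plexus epithelium markers, most of whose sum is the calcium channel gene Trpm3, summed to 27196 and 20963 CPM in cKO, against 12142 and 11705 CPM in WT. That sum in the unmixed groups was 25686 and 17039 CPM in cKO, against 15016 and 15439 CPM in WT. Trpm3 was held by 90.5% and 84.6% of the cKO fibroblast nuclei and by 83.6% and 84.1% of the WT ones. The choroid sum stood at 46512 CPM in the unmixed Nnat group and at 45579 CPM in the mixed group with choroid markers. It therefore does not set choroid epithelium apart from fibroblasts here. The 7 oligodendrocyte precursor markers summed to 505 and 580 CPM in cKO, against 1188 and 939 CPM in WT, and the 7 macrophage markers to 9.42 and 14.3 CPM, against 60.4 and 44.4 CPM. The 7 glutamatergic neuron markers summed to 254.3 and 174 CPM in cKO, against 254.8 and 497 CPM in WT. These 3 sums overlap between genotypes in the unmixed groups. The astrocyte, oligodendrocyte, GABAergic, granule neuron, endothelial, microglia and ependymal sums overlap between genotypes. Doublet calls covered 1.19% and 4.27% of the cKO fibroblast nuclei, against 4.92% and 10.4% of the WT ones. Without the nuclei marked as doublets 63 genes were called. The 15 immediate early genes, which respond to tissue handling, summed to 251 and 200 CPM in cKO, against 140 and 177 CPM in WT, and in the unmixed groups to 305 and 297 CPM in cKO, against 107 and 196 CPM in WT. The part of doublets and of immediate early genes in the genotype result was otherwise not tested.

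Most of the 20 genes with the smallest p fell in cKO. Sgcz, a sarcoglycan, had 279 and 153 CPM in cKO against 871 and 954 CPM in WT, a log2 fold change of -2.13 (SE 0.25, edgeR adjusted p = 0.00200). Every WT library was above both cKO libraries. Its UMIs in the mixed group with neuronal and glial markers were 18 and 13 in cKO, of 89 and 75 in all fibroblasts, and 428 and 624 in WT, of 533 and 837. Sgcz in the unmixed groups had 270 and 160 CPM in cKO against 215 and 346 CPM in WT, and the genotypes overlap (log2 fold change -0.38, edgeR adjusted p = 0.922). The neuronal long non-coding RNA Meg3 had 1626 and 1210 CPM in cKO against 3256 and 3084 CPM in WT (log2 fold change -1.18, edgeR adjusted p = 0.0137), and in the unmixed groups 1682 and 918 CPM in cKO against 1419 and 1595 CPM in WT. Lingo2, Nrg3 and Opcml, which code for neuronal surface proteins and a neuregulin, fell by 1.72, 1.43 and 1.30 on the log2 scale over all nuclei and gave -0.46, -0.29 and -0.03 in the unmixed groups.

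Of the lists of other cell types, choroid plexus epithelium markers rose for 3 of 7 tested (Ttr, Htr2c and Trpm3), mural markers fell for 2 of 9 (Rgs5 among them), oligodendrocyte precursor markers for 2 of 7 (Tnr and Lhfpl3), and pan-neuronal (Meg3) and glutamatergic (Camk2a) markers for 1 of 6 and 1 of 5. Trpm3 was also held by most fibroblast nuclei of every library, so that its rise is not particular to choroid RNA. Of these 3 choroid markers DESeq2 called only Trpm3 (DESeq2 adjusted p = 0.0258, against 0.370 for Ttr and 0.515 for Htr2c), and Trpm3 was lost with the replicate block (edgeR adjusted p = 0.231) and without cKO replicate 1 (edgeR adjusted p = 0.0699). None of these passed in the unmixed groups, where Rgs5 was too low to be tested. Ttr, the thyroid hormone carrier made by choroid plexus, had 1240.0 and 785 CPM in cKO fibroblasts against 144 and 400 CPM in WT fibroblasts, and 74.9 and 32.1 CPM against 20.1 and 43.2 CPM in the unmixed groups. The serotonin receptor gene Htr2c had 2125 and 2670 CPM in cKO against 523 and 1244 CPM in WT, and its sign turned to -0.97 in the unmixed groups. Single nuclei of the mixed group with choroid markers gave 190 of 395 Ttr UMIs and 342 of 677 Htr2c UMIs in cKO replicate 1. Without WT replicate 2 the log2 fold changes were 2.81 for Ttr and 2.20 for Htr2c, and without WT replicate 1 they were 1.28 and 0.90.

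Among fibroblast genes, Fkbp5 (GRCm38 chr17:28399094-28517527, minus strand) had the smallest p after Col25a1. It had 487 and 552 CPM in cKO, against 198 and 196 CPM in WT, a log2 fold change of 1.38 (SE 0.20, edgeR adjusted p = 0.00488). Both cKO libraries were above both WT libraries, and 58.3% and 66.7% of the cKO nuclei held a UMI, against 36.9% and 35.2% of the WT nuclei. Among unmixed nuclei it had 634 and 798 CPM in cKO against 352 and 374 CPM in WT, without overlap, but it did not pass (log2 fold change 1.01, SE 0.23, edgeR adjusted p = 0.447). Within the Slc47a1 group, where it was highest, it had 1402 and 1237 CPM in cKO against 814 and 867 CPM in WT, over 10 and 26 cKO and 16 and 18 WT nuclei. Of 12 glucocorticoid response genes tested, Fkbp5 and Hif3a rose and none fell, with a median of 0.56 against 0.0017 over all genes, of which 0.298% rose. This list, like the others, was chosen with earlier results of these data known, so that its count is a description only. Hif3a rose by 1.26 (edgeR adjusted p = 0.0468) and did not pass with DESeq2 (DESeq2 adjusted p = 0.313), with the replicate block (edgeR adjusted p = 0.0709), without cKO replicate 2 (0.100) or WT replicate 2 (0.352), without marked doublets (0.0624) or in the unmixed groups (0.836). The receptor genes themselves gave -0.01 for Nr3c2 and -0.34 for Nr3c1 (edgeR adjusted p = 0.994 and 0.625).

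Ptgds (chr2:25466709-25470046, minus strand) had 3952 and 2867 CPM in cKO against 1157 and 1456 CPM in WT, a log2 fold change of 1.36 (SE 0.22, edgeR adjusted p = 0.00924). Among unmixed nuclei it had 4144 and 4373 CPM in cKO against 1543 and 3020 CPM in WT, a log2 fold change of 0.92 (SE 0.31) that did not pass (edgeR adjusted p = 0.669). Within the Nnat group, where every nucleus held it, it had 7883 and 11339 CPM in cKO against 6578 and 6207 CPM in WT. The genotypes did not overlap in any of these 3 sets of nuclei. Among the 6 arachnoid markers tested, Ptgds was the only one to rise, and Aldh1a2 gave 0.58 and Slc47a1 0.69 without passing.

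Of 17 other collagens tested, Col25a1 and Col8a1 rose and none fell, with a median of 0.23. Col25a1 (chr3:130131501-130599877, plus strand), a transmembrane collagen, had 596 and 791 CPM in cKO against 194 and 219 CPM in WT, a log2 fold change of 1.73 (SE 0.22, edgeR adjusted p = 0.00200). Its log2 fold change in the unmixed groups was also 1.73 (SE 0.30), with 894 and 1383 CPM in cKO against 265 and 435 CPM in WT, and did not pass there (edgeR adjusted p = 0.146). It was smaller when more of the rule was required, at 1.12 with at least 4 and with at least 5 genes and 0.71 with 3 of 8 genes (edgeR adjusted p = 0.135, 0.572 and 0.765). Within the Slc47a1 group it had 3634 and 3056 CPM in cKO against 766 and 1792 CPM in WT. Col8a1 (chr16:57624258-57754737, minus strand), a short-chain collagen of vessel walls, had 785 and 239 CPM in cKO against 93.1 and 120 CPM in WT, a log2 fold change of 2.20 (SE 0.39, edgeR adjusted p = 0.0155). A single nucleus of the Runx1 group gave 144 of its 250 UMIs in cKO replicate 1, and without that library the log2 fold change was 1.14. DESeq2 did not call it.

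Basement membrane genes had 0 of 19 called in either direction. Their median was -0.59, against 0.0018 over all 8399 genes, and 15 of them were negative. In the unmixed groups 15 of 17 were negative with a median of -0.81, against 0.0088 over all 5403 genes. These signs were not tested as a set. Col4a6 had 185 and 157 CPM in cKO against 345 and 271 CPM in WT, a log2 fold change of -0.87 (SE 0.22, edgeR adjusted p = 0.0643), and the genotypes do not overlap. None of 23 matrix glycoproteins passed, and Fn1 (fibronectin) had 220 and 253 CPM in cKO against 140 and 114 CPM in WT, a log2 fold change of 0.89 (SE 0.22, edgeR adjusted p = 0.0637). Of 22 matrix enzymes, Adamtsl3 rose, with 430 and 517 CPM in cKO against 270 and 105 CPM in WT, a log2 fold change of 1.36 (SE 0.31, edgeR adjusted p = 0.0437). It rested on WT replicate 2, without which it was 0.82 (edgeR adjusted p = 0.248), and it was 2.13 without WT replicate 1. DESeq2 gave an adjusted p of 0.0524.

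Of 22 BMP and TGF-beta genes, Bmp5 (chr9:75775364-75900310, plus strand) rose, with 270.0 and 227 CPM in cKO against 108 and 104 CPM in WT, a log2 fold change of 1.20 (SE 0.22, edgeR adjusted p = 0.0179). Among unmixed nuclei Bmp5 had 389 and 337 CPM in cKO against 171 and 216 CPM in WT, a log2 fold change of 0.92 (SE 0.24) that did not pass (edgeR adjusted p = 0.459). Over all nuclei DESeq2 gave Bmp5 an adjusted p of 0.0524. Bmp6 gave 0.27 and did not pass. Among 25 growth factors and receptors Lifr, the receptor of leukaemia inhibitory factor, rose by 1.57 (SE 0.32, edgeR adjusted p = 0.0296). Without cKO replicate 1 its log2 fold change was 0.95. Single nuclei of the Runx1 group gave 30 of its 78 UMIs in cKO replicate 1 and 21 of 55 in cKO replicate 2. Without the top nucleus of each library Lifr had 154.62 and 69.7 CPM in cKO, against 47.98 and 55.32 CPM in WT. The share of nuclei holding a Lifr UMI overlapped between genotypes. Apod, a lipocalin named here after its values were seen, had 675 and 435 CPM in cKO against 260 and 235 CPM in WT, a log2 fold change of 1.14 (edgeR adjusted p = 0.0232), and 0.81 without cKO replicate 1 (edgeR adjusted p = 0.0625).

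No gene passed in either direction among 25 transporters (median 0.54, 20 of them positive), 8 retinoid, 14 Wnt, 23 guidance, 20 transcription factor, 19 junction and 14 miRNA pathway genes. The signs of the transporters were not tested as a set. The miRNA pathway, to which Ago2 belongs, had a median of -0.04. The 11 genes of the rule ranged from -0.37 for Col3a1 to 0.75 for Bnc2 and are given without a test.

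**Figure D4:**
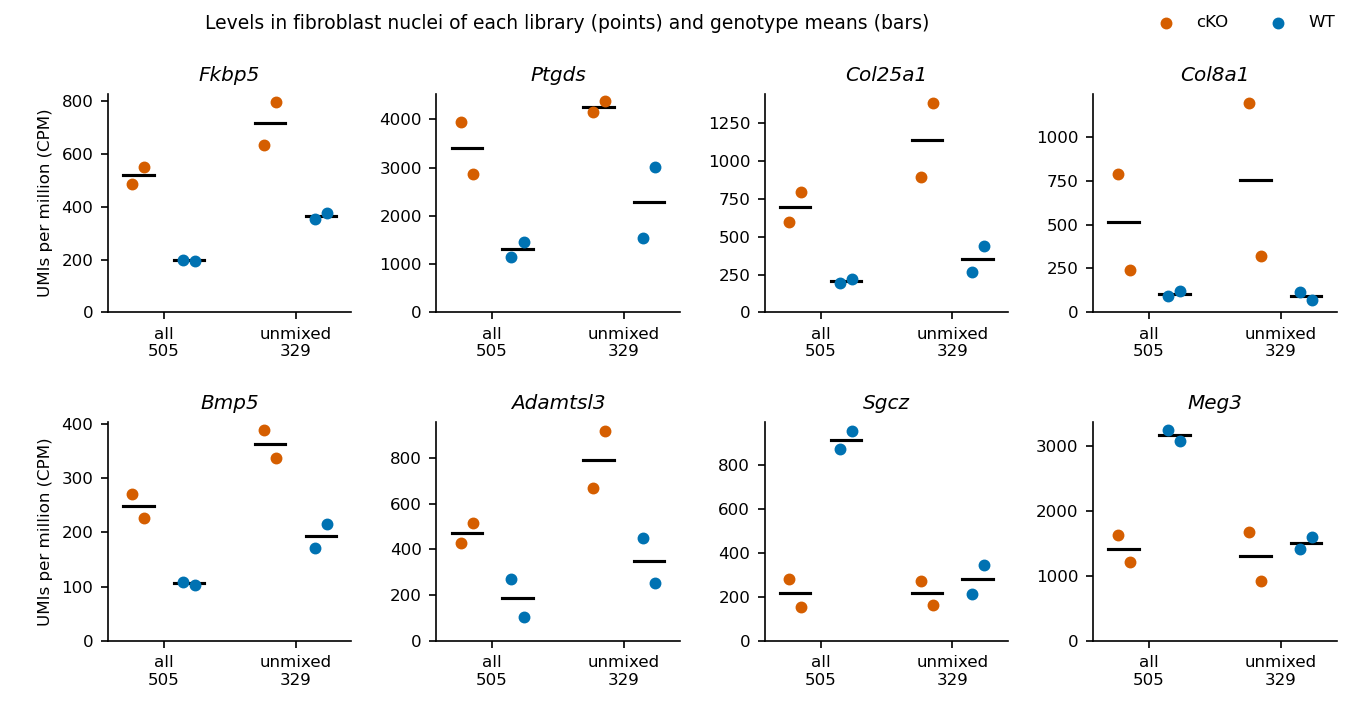
CPM (vertical axes, starting at 0) of 8 genes in the fibroblast nuclei of each cKO (orange, left in each pair) and WT (blue, right) library, over all 505 nuclei and over the 329 nuclei of the unmixed groups. Points are libraries and black bars are genotype means. Sgcz and Meg3 separate the genotypes only over all nuclei, while Fkbp5, Ptgds, Col25a1, Col8a1, Bmp5 and Adamtsl3 are higher in both cKO libraries in both sets.

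Whether the genotype effect in fibroblasts differed from that in their neighbours was tested with an interaction term, blocking on library. Against mural nuclei, edgeR called 0 of 6198 genes (0%), with 345 at an unadjusted p under 0.05, and DESeq2 called 0 as well. The count was 9 without cKO replicate 1 and 12 without nuclei marked as doublets. Against endothelial nuclei it called 78 of 9012 genes (0.866%), 20 with a higher and 58 with a lower effect in fibroblasts, while DESeq2 called 5. Leaving out a library gave 215 without cKO replicate 1, 127 without cKO replicate 2, 38 without WT replicate 1 and 50 without WT replicate 2. No gene was called when 5 of the 11 genes were required or when the mitochondrial maximum was 10%. With the unmixed groups alone, 35 genes were called, of which 21 were among the 78.

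The 6 genes with the smallest p all had a lower effect in fibroblasts. Eln (elastin) had 185 and 53.1 CPM in cKO against 88.2 and 101 CPM in WT fibroblasts, and 727 and 141 CPM in cKO against 34.6 and 3.14 CPM in WT endothelial nuclei. The genotypes overlap in fibroblasts and not in endothelial nuclei, and the difference of the log2 fold changes, fibroblasts minus endothelial, was -4.20 (SE 0.55, edgeR adjusted p = 0.000119). A single endothelial nucleus gave 90 of the 149 UMIs of cKO replicate 1, and another gave 19 of the 32 of cKO replicate 2. Without WT replicate 1 the difference was -6.65. Rbm20, a splicing factor, had 12.6 and 32.7 CPM in cKO against 84.9 and 42.2 CPM in WT fibroblasts, and 156 and 248 CPM in cKO against 69.2 and 61.3 CPM in WT endothelial nuclei, a difference of -2.97 (SE 0.49, edgeR adjusted p = 0.00216). Restricted to unmixed nuclei, Eln gave -4.53 (edgeR adjusted p = 0.000201) and Rbm20 -3.22 (edgeR adjusted p = 0.0158). Neither passed with 3 of 8 genes of the rule (edgeR adjusted p = 0.0584 for Eln and 0.122 for Rbm20) or without nuclei holding markers of other types (0.168 for both), with at least 5 genes (0.176 for Eln and 0.268 for Rbm20) or with a mitochondrial maximum of 10% (0.0981 for Eln and 0.177 for Rbm20), and DESeq2 did not call Rbm20 (DESeq2 adjusted p = 0.0636).

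The other 4 did not pass in the unmixed groups, which leave out the mixed group with mural and endothelial markers, of 0 and 4 nuclei in cKO and 7 and 9 in WT. Slc7a1, a cationic amino acid transporter, had 18.8 and 26.6 CPM in cKO against 68.6 and 47.8 CPM in WT fibroblasts, and 312 and 813 CPM in cKO against 135 and 212 CPM in WT endothelial nuclei. Its difference was -3.00 over all nuclei and -1.85 in the unmixed groups (edgeR adjusted p = 0.00216 and 0.147). Egfl7 and Nostrin, a regulator of endothelial nitric oxide synthase, had differences of -4.24 and -4.62 over all nuclei, and of -2.11 and -1.56 in the unmixed groups (edgeR adjusted p = 0.630 and 0.850 there). Both were at most 29.6 CPM in every fibroblast sum and at least 75.0 CPM in every endothelial sum. Without cKO replicate 2 the differences were -2.81 for Egfl7 (edgeR adjusted p = 0.0713) and -7.17 for Nostrin. The gene 6330411D24Rik had a difference of -3.90 over all nuclei and -6.04 in the unmixed groups (edgeR adjusted p = 0.000119 and 0.151). Single endothelial nuclei gave 24 of its 35 UMIs in cKO replicate 1 and 32 of 53 in cKO replicate 2.

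**Figure D5:**
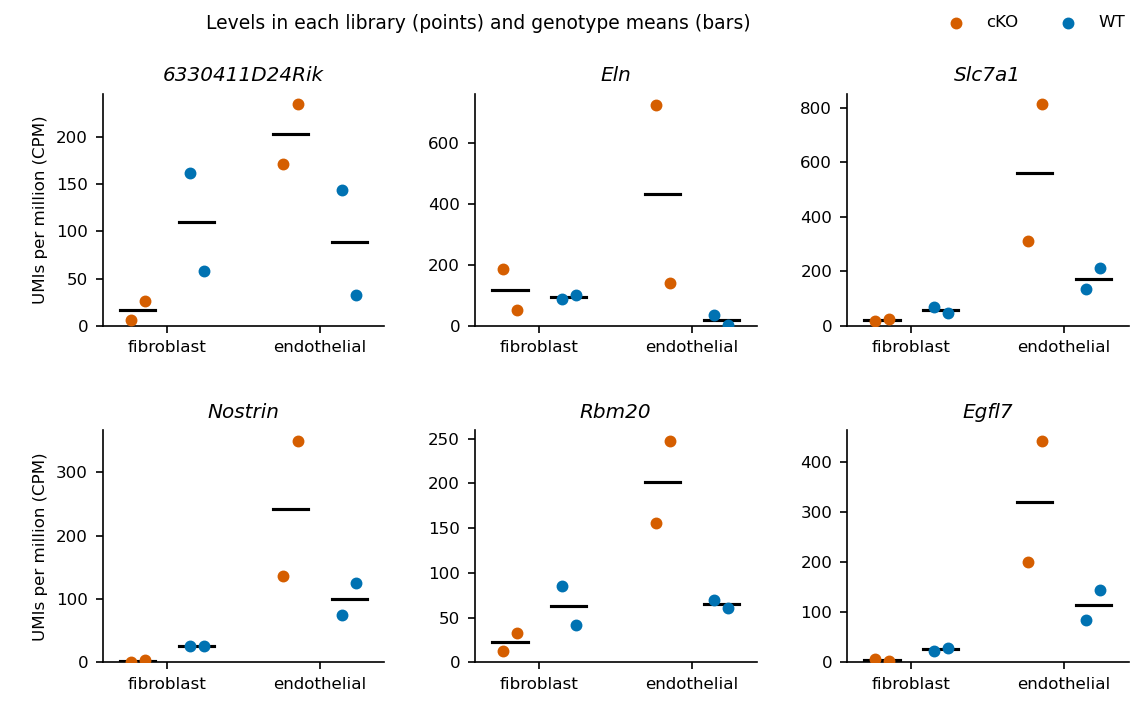
CPM (vertical axes, starting at 0) of the 6 genes whose genotype effect differed with the smallest p between fibroblast and endothelial nuclei, in each cKO (orange, left in each pair) and WT (blue, right) library. Points are libraries and black bars are genotype means. In all 6 genes both cKO libraries lie above both WT libraries in endothelial nuclei, and in fibroblasts both lie below them in all but Eln.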

How the data were processed

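Nuclei from snap-frozen brain hemispheres were profiled with 10x Chromium 3′ v3 chemistry. The deposited files hold whole-number UMI counts per gene and barcode, made with Cell Ranger 4.0.0 per the file headers. GRCm38 and Seurat 3.2.3 are named in the submitters' processing notes. The annotation release and intron setting are not given in the sources used here. The members and gene lists were chosen with earlier results of these data known. Counts were summed per library over fibroblast, mural or endothelial nuclei and tested with edgeR 4.0.16 (filterByExpr, TMM, quasi-likelihood, Benjamini-Hochberg), with DESeq2 1.42.0 as an alternative. DESeq2 and edgeR fold changes are on the log2 scale. Members were clustered with scanpy 1.11.5 (2000 variable genes, 20 components, Leiden resolution 0.8). Doublets were marked with Scrublet at 0.8% per 1000 nuclei and kept in the main result. The unmixed groups as an alternative were chosen after seeing the data. Microglia were used as background for free RNA. Genes were named by a rule: up to 20 genes past the threshold by smallest p for genotype, Ago2, Slc17a6, the genes of the rule, the 10 of largest fold per direction between classes, and up to 6 of highest level per list. Genes outside it were named after their values were seen, including those listed as passing in a list. Replicates of a group differed by more than sampling noise (chi-square over degrees of freedom 2.55 for cKO and 2.59 for WT). Coordinates are from GENCODE on GRCm38. The fits were tested on simulated counts. Some genes of the lists are not reported here by name.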

Additional observations from a re-analysis of the deposited data

Results flagged for a closer look

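The genotype effect differed between fibroblasts and endothelial nuclei, by the interaction test itself, for 78 genes. The 6 of smallest p had differences of log2 fold changes, fibroblasts minus endothelial, of -3.90 for 6330411D24Rik, -4.20 for Eln, -3.00 for Slc7a1, -4.62 for Nostrin, -2.97 for Rbm20 and -4.24 for Egfl7. Of these, Eln and Rbm20 also passed in the unmixed groups, but neither passed with 3 of 8 genes of the rule (edgeR adjusted p = 0.0584 for Eln and 0.122 for Rbm20) or without nuclei holding markers of other types (0.168 for both), with at least 5 genes or with a mitochondrial maximum of 10%, and DESeq2 did not call Rbm20 (DESeq2 adjusted p = 0.0636). Single endothelial nuclei gave 90 of 149 Eln UMIs in cKO replicate 1 and 19 of 32 in cKO replicate 2.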

How the results depend on the processing

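The number of genotype calls (118) was 347 with no filter on low counts, 41 with DESeq2, 81 with the replicate block, 1 and 5 when at least 4 or 5 genes of the rule were required, 5 with 3 of 8 genes, 63 without marked doublets, 0 without nuclei holding other types' markers, 57 with a mitochondrial maximum of 10% and 0 without mixed groups, and ranged from 97 to 253 when a library was left out. The difference in shares (-0.24 points) turned to 0.68 without nuclei holding other types' markers, 0.071 without mixed groups and 0.0327 after thinning to 500 UMIs, and ranged from -0.77 to 0.29 when a library was left out. Calls against mural nuclei (802) were 534 with DESeq2 and 1638 without mixed groups (550 to 607 with a library left out), and calls against endothelial nuclei (2004) were 1290 with DESeq2 (1399 to 1739). Interaction calls against mural nuclei (0) were 12 without marked doublets and 4 without mixed groups (0 to 9). Those against endothelial nuclei (78) were 5 with DESeq2, 46 and 0 when at least 4 or 5 genes were required, 2 with 3 of 8 genes, 0 without nuclei holding other types' markers, 0 with a mitochondrial maximum of 10% and 35 without mixed groups (38 to 215). Cntnap5a turned to 0.13 without nuclei holding other types' markers and 0.0001 without mixed groups, Htr2c to -0.97 without mixed groups, and Ago2 to 0.15 without cKO replicate 1 and 0.08 without WT replicate 2. Several of these settings also leave fewer nuclei and genes; the cause was not tested. A lone library left in a group was assumed to vary like the others. The replicate differences of cKO and WT fibroblasts had a correlation of -0.041 over 8399 genes. Whether libraries of the same replicate number share a litter or handling was not tested.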
